A study of Homo sapiens with 6 samples.

Results

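The transcripts of 9 transcription factors of the circadian clock were followed, out of 16907 gene symbols in the files. They comprised the activators ARNTL (also named BMAL1), ARNTL2, CLOCK and NPAS2, the nuclear receptor RORA, the PAR bZIP factors DBP, TEF and HLF, and NFIL3, which binds the same DNA element as the PAR bZIP factors. Genes were matched by symbol, and all 9 were found. The group was chosen by role in the clock, but with results of this same siOGT against siControl comparison known, so levels, differences and calls of these genes are given as a description and are not independent evidence. Counts came from LX-2, an established human hepatic stellate cell line, in 2 groups of 3 libraries. Cells received 20 nM of siControl or of siOGT for 72 h with JetPrime, and both groups were in DMEM with serum. OGT, the targeted gene, encodes the enzyme that attaches O-GlcNAc to proteins. The control siRNA came from Ambion and the siRNA against OGT from Horizon Discovery, so silencing and the source of the siRNA cannot be told apart, and each group was harvested at a single time. In a single harvest, a clock that is shifted in phase and one that runs at another level cannot be told apart, and in bulk RNA the same holds for fewer cells with a transcript and less of it per cell.

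The circadian clock is a feedback loop of transcription. CLOCK or its relative NPAS2 pairs with ARNTL or ARNTL2 through bHLH and PAS domains and activates genes that carry an E-box, among them the PER and CRY repressors, the REV-ERB genes NR1D1 and NR1D2, and the PAR bZIP genes. RORA activates, and the REV-ERB proteins repress, genes with a ROR element, of which ARNTL, CLOCK, NPAS2 and NFIL3 are textbook cases, while DBP, TEF and HLF activate and NFIL3 represses genes with a D-box. In liver these output factors are known for daily rhythms of metabolic and detoxification genes.

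Promoter sequence was examined for the elements through which these factors are wired to each other. RefSeq start sites on GRCh38.p14 gave 14 windows for the 9 genes, each of the 250 bases before a start and the first 50 bases after it. Windows were searched on both strands for the E-box CACGTG, the E'-box CACGTT, the D-box TTATGTAA and TTACGTAA, the ROR element TAGGTCA and TGGGTCA, and the cAMP response element (CRE) TGACGTCA. Of the 14 windows, 6 held a match to at least 1 of these elements. The share of all windows with a match to any of them was not computed, and shares are given below element by element. The sequences below are those around the matches, 5′ to 3′ on the strand of the gene, with the match in capitals. They are shown because these 5 genes carry, near a start, an element of the loop or of its cAMP input, whereas the windows of DBP, ARNTL2, NPAS2 and RORA held none. TEF had an E-box at both of its starts, 195 bases before the first (chr22:41367235-41367290) and 193 bases before the second (chr22:41381724-41381779), both on the plus strand.
TEF first start: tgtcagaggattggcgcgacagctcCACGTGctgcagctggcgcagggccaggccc
TEF second start: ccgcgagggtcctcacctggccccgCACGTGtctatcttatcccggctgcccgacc
A ROR element stood 9 bases before a start of NFIL3 (chr9:91423833-91423866, minus strand), 31 bases after a start of ARNTL (chr11:13277810-13277836, plus strand) and 217 bases before a start of CLOCK (chr4:55546118-55546174, minus strand). In NFIL3 and CLOCK it was written in the reverse complement.
NFIL3: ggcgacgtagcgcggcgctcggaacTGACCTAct
ARNTL: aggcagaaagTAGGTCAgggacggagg
CLOCK: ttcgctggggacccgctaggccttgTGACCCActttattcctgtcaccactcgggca
HLF carried a CRE that began 7 bases before a start and ran across it (chr17:55264943-55264970, plus strand).
HLF: gtgcgggcccTGACGTCActcttgtcag
The same CLOCK window held an E'-box 187 bases before the start, and a D-box was found in 0 of the 14 windows. Of all 35116 RefSeq windows, 7.26% held the E-box, 5.34% the E'-box, 1.01% the D-box, 5.69% the ROR element and 1.85% the CRE. A match describes letters only, and the absence of one in these windows says nothing about binding elsewhere.

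Libraries held between 25996770 and 27966801 expected counts. OGT, examined first, had 4737, 3489 and 3383 counts in siControl and 1079, 726 and 782 in siOGT, so that 22.5%, 19.7% and 24.1% of the siControl level remained in the 3 pairs. Of 12 stellate cell markers found, 11 could be tested, and the collagens COL1A1, COL1A2 and COL3A1 and the receptor PDGFRB were called lower while RELN was called higher. VIM was high (3200 and 3075 CPM, counts scaled to a fixed library size, in siControl and siOGT), whereas LRAT, DES, LUM and HAND2 were near 0. ACTA2 stood at 6.55 CPM in siControl and 7.58 CPM in siOGT and was not called (log2 fold change 0.25). The summed stellate markers, mostly VIM and COL1A1, ran from 6335 to 7651 CPM in siControl and from 5475 to 6630 CPM in siOGT. Summed markers of endothelial cells ran from 3.29 to 7.86 and from 3.00 to 5.87 CPM, with VWF called lower (2.60 against 1.35 CPM), and those of cholangiocytes from 88.6 to 128 and from 91.4 to 129 CPM, nearly all of it SOX9. Macrophage markers summed to between 132 and 163 CPM in siControl and between 177 and 208 CPM in siOGT. Of the 4 found, CD68, a lysosomal protein, was called higher and made up most of the sum. CD14 (log2 fold change -0.26) and CSF1R (-0.53) lay below their paired controls in all 3 pairs without being called, and PTPRC, the defining leukocyte marker, had at most 0.855 CPM in any library.

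Of the 9 factors, 8 passed the filter of at least 10 counts in total, and NPAS2 did not. In the fit across 14853 genes, 4 of the 8 were called higher in siOGT (HLF, TEF, DBP and NFIL3), against 12.7% of all genes tested, and 0 were called lower, against 12.7% of all genes. A gene is called where the p-value of the edgeR quasi-likelihood test, blocked on the replicate number and adjusted over all genes by Benjamini-Hochberg, was at most 0.05. The median log2 fold change was 0.29 over the 8 factors and 0.0068 over all genes. Without replicate 1, and likewise without replicate 3, 2 were called (TEF and HLF), with DESeq2 1 (TEF), and without the block 0. All 3 PAR bZIP genes and NFIL3 were among the called, and ARNTL, ARNTL2, CLOCK and RORA were not. The calls did not follow the size of the change alone. RORA had a log2 fold change of 0.33 (SE 0.205), above the 0.31 of DBP (SE 0.0939) and the 0.27 of NFIL3 (SE 0.0780). The interval of ARNTL (from -0.015 to 0.43) overlapped that of NFIL3 (from 0.11 to 0.44). Whether the called factors differed from the others was not tested. In 6 of the 8 the siOGT library was above the siControl library in each of the 3 pairs, a pattern seen in 27.4% of all genes. The groups did not overlap in 2 of the 8, TEF and HLF, with siOGT higher, against 12.1% of all genes.

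**Figure D1:**
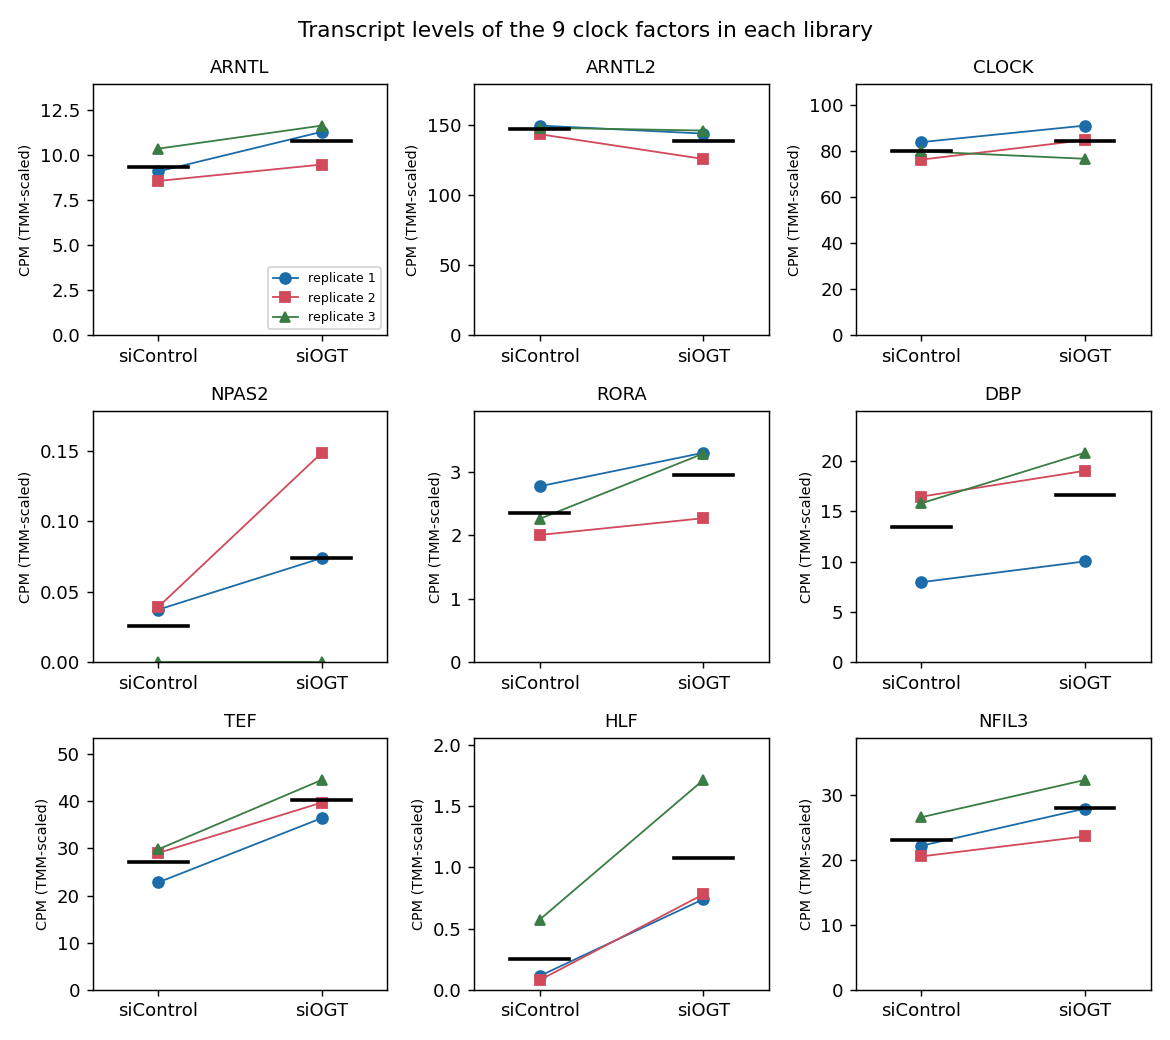
Level of the 9 factors in each library, in TMM-scaled CPM on linear axes from 0, with siControl on the left and siOGT on the right of each panel. Coloured points joined by a line are the 2 libraries of one replicate number and black bars are group means over 3 libraries. Only in TEF and HLF do all siOGT points lie above all siControl points, and the 2 libraries of replicate 1 lie apart from the others in DBP.

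Of the activators that start the loop, 3 could be tested and 0 were called. ARNTL (chr11:13276652-13387266, plus strand, hg38) had 243, 218 and 289 counts in siControl and 305, 255 and 312 in siOGT, that is 9.34 ± 0.920 and 10.8 ± 1.16 CPM (SD, n = 3). It was above its paired control in each replicate, yet the groups overlapped, since siOGT replicate 2 lay below siControl replicate 3. ARNTL was not called, at a log2 fold change of 0.21 with an SE of 0.107 and a 95% interval from -0.015 to 0.43.

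ARNTL2 (chr12:27332836-27425289, plus strand), the paralog that can take the place of ARNTL beside CLOCK, had 149, 143 and 148 CPM in siControl and 144, 126 and 146 CPM in siOGT. It lay below its paired control in each of the 3 pairs, the opposite direction to ARNTL, but by little in replicates 1 and 3. The log2 fold change was -0.09 (SE 0.0652, interval from -0.23 to 0.049), which was not called. The log2 ratio of ARNTL to ARNTL2 CPM was -3.98 ± 0.125 in siControl and -3.68 ± 0.0419 in siOGT (SD, n = 3), and in the 3 pairs it was 0.37, 0.34 and 0.19 higher in siOGT. These 6 ratios did not overlap between groups, but neither gene was called. Single genes with every siOGT library higher made up 12.1% of all genes. How often ratios of other genes separate the groups was not examined. Per kilobase of merged exons (7001 bases in ARNTL2 and 6934 in ARNTL), ARNTL2 stood 15.6-fold above ARNTL in siControl and 12.7-fold in siOGT. By this measure, most transcripts of the 2 paralogs were those of ARNTL2 in both groups. Merged exons are those of all annotated transcripts of a gene, and transcript lengths in these cells are not known.

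CLOCK (chr4:55427903-55546909, minus strand), the partner of both, had 83.8, 76.2 and 79.8 CPM in siControl and 90.9, 84.6 and 76.5 CPM in siOGT. Replicates 1 and 2 rose above their controls and replicate 3 fell below, and the log2 fold change of 0.07 (SE 0.0673, interval from -0.071 to 0.21) was not called. NPAS2 (chr2:100820139-100996829, plus strand), the relative that can replace CLOCK, was barely detected. It had 1, 1 and 0 counts in siControl and 2, 4 and 0 in siOGT, 8 in all, too few for the filter. A count of 0 allowed up to 3 counts (counting error only). That is 0.107 CPM in siControl replicate 3 and 0.112 CPM in siOGT replicate 3. Small differences and decreases in NPAS2 were therefore not detectable at this depth, and no fold is given. HLF, also low in siControl (3, 2 and 16 counts), reached 20, 21 and 46 counts in siOGT and was called. No rise to such counts was seen in NPAS2. Of the partners CLOCK and NPAS2, CLOCK was thus nearly all that was measured.

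RORA (chr15:60488284-61229302, minus strand), which activates ARNTL and NFIL3 through the ROR element, had 74.3, 51.0 and 63.0 expected counts in siControl and 89.1, 61.0 and 88.3 in siOGT. All 3 pairs were higher in siOGT, by 0.25, 0.17 and 0.53 on the log2 scale, but the groups overlapped. The log2 fold change of 0.33 (SE 0.205) had an interval from -0.10 to 0.76, wider than those of ARNTL, ARNTL2 and CLOCK, and RORA was not called. NR1D1, the repressor that competes with RORA for the same element, was called higher in siOGT, at 159 ± 33.3 against 481 ± 131 CPM (SD, n = 3). The log2 ratio of NR1D1 to RORA CPM was 5.75, 6.03 and 6.44 in siControl and 7.27, 7.22 and 7.50 in siOGT. These ratios did not overlap, nor did NR1D1 alone, and ratios of other genes were not examined.

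The 3 PAR bZIP genes were all called higher, to unequal extents. TEF (chr22:41367333-41399326, plus strand), the one with the most counts, had 609, 739 and 832 counts in siControl and 985, 1070 and 1195 in siOGT, or 22.8, 29.0 and 29.8 against 36.5, 39.8 and 44.6 CPM. Every siOGT library was above every siControl library, and the pairs differed by 0.68, 0.45 and 0.58 on the log2 scale. Mean levels were 27.2 ± 3.85 and 40.3 ± 4.08 CPM (SD, n = 3), a ratio of 1.48, and the log2 fold change was 0.57 (SE 0.0756, interval from 0.41 to 0.73).

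HLF (chr17:55264960-55325187, plus strand), the factor with the largest fold change of the 8, was also the lowest of those tested. It had 3, 2 and 16 counts in siControl and 20, 21 and 46 in siOGT. Replicate 3 was the highest library in both groups, and siControl replicate 3 came close to siOGT replicates 1 and 2. Mean levels were 0.255 ± 0.276 and 1.08 ± 0.552 CPM (SD, n = 3), and the log2 fold change was 2.18 (SE 0.479, interval from 1.17 to 3.18). From the counts alone, scaled for library size, the ratio of siOGT to siControl was 6.60 (95% interval from 1.96 to 34.7) in pair 1, 9.93 (from 2.43 to 87.4) in pair 2 and 2.99 (from 1.66 to 5.66) in pair 3. These exact intervals cover counting error only, and they overlap. The log2 fold change was 2.04 without replicate 1, 1.91 without replicate 2 and 2.92 without replicate 3. HLF is also known as a factor of hepatocytes, and hepatocyte markers were therefore set beside it. Of 4 found, 3 could be tested and CYP2E1 was called higher, at 4.08 against 6.88 CPM, while the other 2 had log2 fold changes of -0.22 and -0.25 and were not called. The higher sum in siOGT thus rests on CYP2E1. The summed level of these markers ran from 6.40 to 9.24 CPM in siControl and from 8.18 to 12.6 CPM in siOGT, and ALB, the defining marker, had at most 0.111 CPM in a library. The part of these markers in the HLF difference was not tested.

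DBP (chr19:48630030-48637379, minus strand) had 213, 419 and 441 counts in siControl and 271, 512 and 558 in siOGT, or 7.97, 16.5 and 15.8 against 10.03, 19.0 and 20.8 CPM. Within each group the highest library was 2.07-fold above the lowest, and replicate 1 was the lowest in both. The groups therefore overlapped widely, although each pair was higher in siOGT, by 0.33, 0.21 and 0.40 on the log2 scale. The log2 fold change was 0.31 (SE 0.0939, interval from 0.11 to 0.51). DBP shares 661 exonic bases, 10.2% of its exonic length, with SPHK2 on the other strand, and counting was specific for strand. The DBP call was lost without replicate 1 (log2 fold change 0.30), without replicate 3 (0.26), with DESeq2 (0.31) and without the block (0.31).

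NFIL3 (chr9:91409045-91423832, minus strand), which opposes the PAR bZIP factors at the D-box, was called higher as well. It had 22.2, 20.5 and 26.6 CPM in siControl and 27.9, 23.6 and 32.3 CPM in siOGT, each pair being higher by 0.33, 0.20 and 0.28 on the log2 scale. Groups overlapped, as siOGT replicate 2 lay below siControl replicate 3. The log2 fold change was 0.27 (SE 0.0780, interval from 0.11 to 0.44), and its call too was lost without replicate 1 (0.24), without replicate 3 (0.26), with DESeq2 (0.27) and without the block (0.27).

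Activators and the repressor of the D-box were thus both higher, and their ratio was examined. Summed PAR bZIP transcripts amounted to 30.9, 45.6 and 46.2 CPM in siControl and 47.2, 59.6 and 67.1 CPM in siOGT. The log2 ratio of this sum to NFIL3 was 0.48, 1.15 and 0.80 in siControl and 0.76, 1.33 and 1.05 in siOGT. It was higher in siOGT in each pair, by 0.28, 0.18 and 0.26, although the groups, taken without the pairing, overlapped. TEF made up most of the sum, with a mean of 27.2 of 40.9 CPM in siControl and 40.3 of 58.0 CPM in siOGT. DBP alone was higher by 0.33, 0.21 and 0.40 in the pairs, close to the 0.33, 0.20 and 0.28 of NFIL3 in replicates 1 and 2. The ratio thus rests mainly on TEF.

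**Figure D2:**
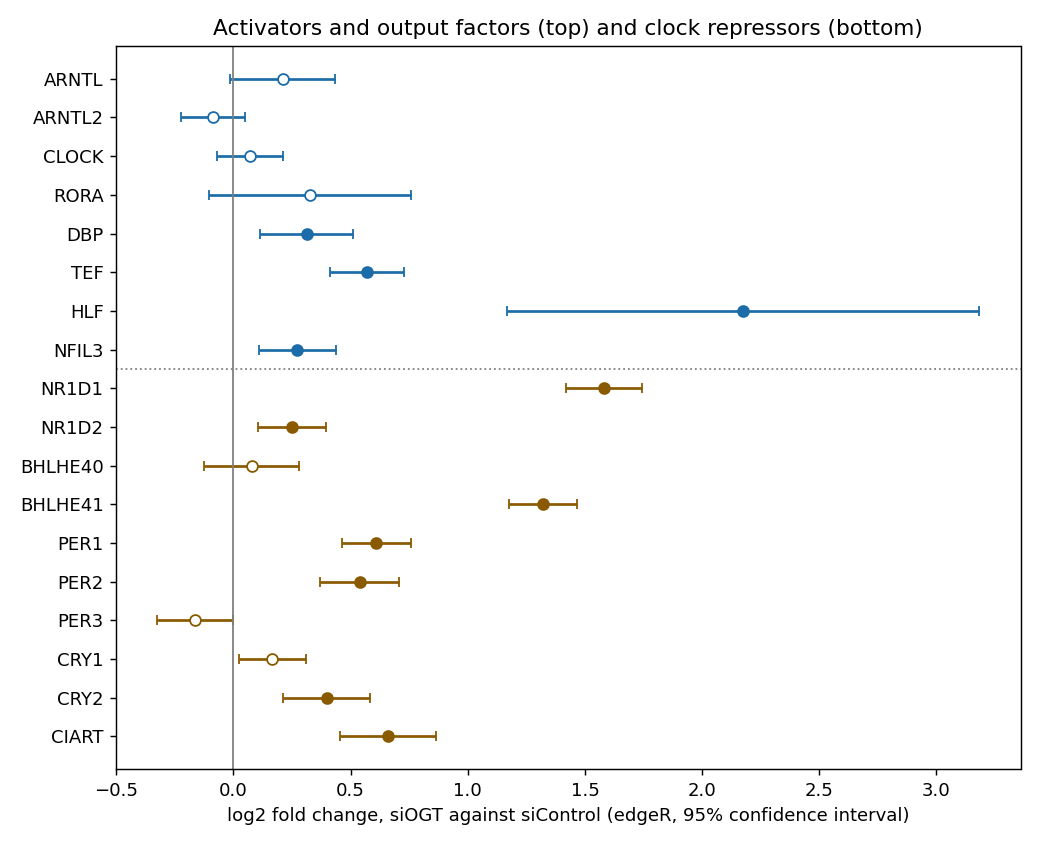
Log2 fold change of siOGT against siControl from edgeR, with 95% confidence intervals, for the 8 factors tested (blue, top) and for 10 clock repressors (brown, bottom). Filled points are called genes: HLF at 2.18 has the widest interval, and ARNTL, ARNTL2, CLOCK and RORA are open points whose intervals span 0.

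The spread over the 6 libraries was divided between group, replicate number and residual, as a description of log2 CPM. TEF and HLF were the factors in which the group carried the larger share, 78.5% and 64.7%. In NFIL3 the group carried 38.8% and the replicate number 59.7%, and in DBP 9.82% and 89.6%. Over 12373 genes whose mean reached 1 CPM, the median shares were 27.1% for the group and 48.6% for the replicate number, and 977 of these genes had a replicate share at or above that of DBP. ARNTL (42.0% and 52.7%), ARNTL2 (28.0% and 52.9%) and RORA (34.1% and 57.9%) leaned to the replicate number. CLOCK had the smallest group share after DBP, 15.5%, and the largest residual, 26.9%.

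**Figure D3:**
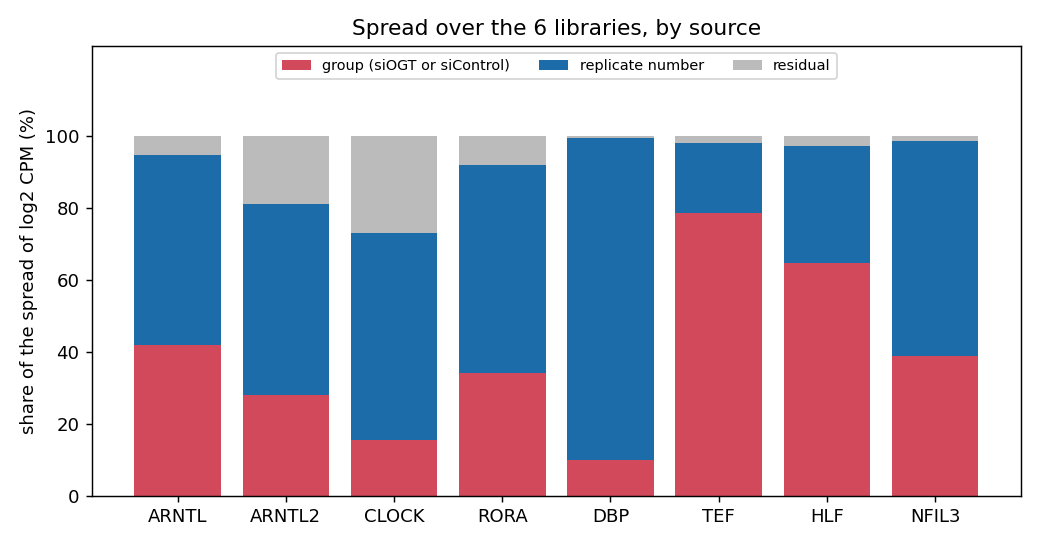
Share of the spread of log2 CPM over the 6 libraries that goes with the group, with the replicate number or with neither, in percent, as stacked bars that sum to 100 for each of the 8 factors tested. The group takes 78.5% in TEF and 9.82% in DBP.

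Levels were compared between genes as CPM per kilobase of exonic sequence, taken as the merged exons of all GENCODE 44 transcripts of a gene. This length ran from 2055 bases in NFIL3 to 17023 in RORA, with 6485 in DBP and 4702 in TEF. It can exceed the length of the transcripts present, which is not known here, so the order between genes depends on it. In siControl the order was ARNTL2 (20.98 ± 0.457), NFIL3 (11.2 ± 1.52), CLOCK (6.93 ± 0.329), TEF (5.79 ± 0.819), DBP (2.07 ± 0.728), ARNTL (1.35 ± 0.133), RORA (0.138 ± 0.0229), HLF (0.0376 ± 0.0408) and NPAS2 (0.00204 ± 0.00177), each as mean and SD of 3 libraries. Neighbours in this order did not overlap, except DBP and ARNTL. In siOGT, TEF (8.56 ± 0.867) stood above CLOCK (7.29 ± 0.626), with overlapping ranges, and the order was otherwise the same. HLF (0.159 ± 0.0814) there overlapped with RORA (0.173 ± 0.0347), and DBP (2.56 ± 0.891) still with ARNTL (1.56 ± 0.167).

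**Figure D4:**
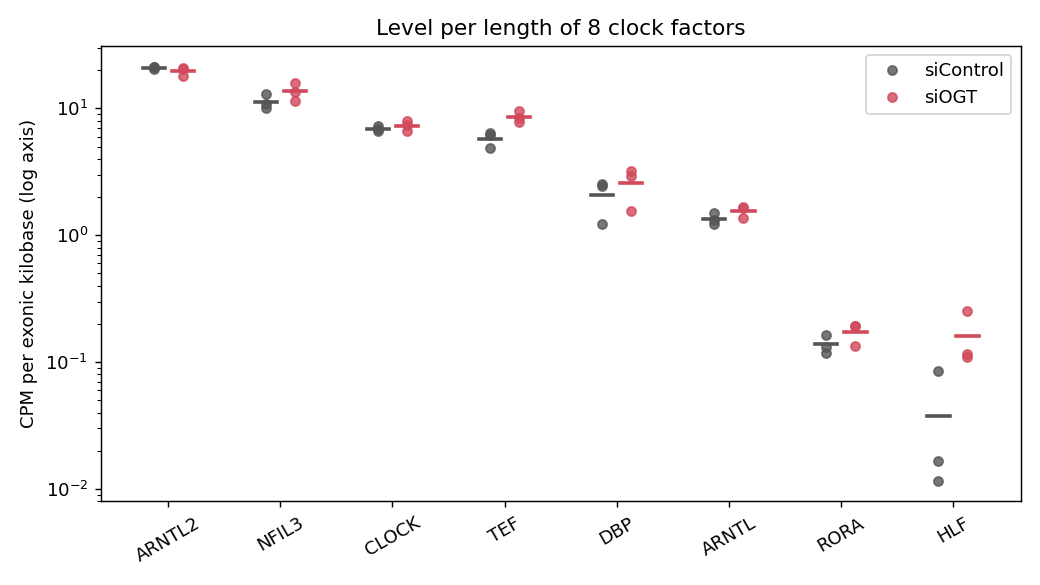
Level of 8 factors in CPM per exonic kilobase on a log axis, ordered by the siControl mean, with 3 siControl libraries in grey, 3 siOGT libraries in red and bars for group means. NPAS2, at 0 in 2 libraries, is left out. ARNTL2 lies above all others in both groups, and HLF spans the widest range.

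The repressors of the loop, which CLOCK and ARNTL activate and which act back on them, are given for context. This list, too, was chosen with results of this comparison known. Of 10, 7 were called higher and 0 lower, against 12.7% of all genes tested in each direction. The 7 were NR1D1 (log2 fold change 1.58), BHLHE41 (1.32), which competes for E-boxes, CIART (0.66), PER1 (0.61), PER2 (0.54), CRY2 (0.40) and NR1D2 (0.25). CRY1 (0.17), BHLHE40 (0.08) and PER3 (-0.16) were not called. Without the block, the calls of PER2, CRY2, CIART and NR1D2 were lost. The NR1D2 call was also lost without replicate 1 (0.25) or replicate 2 (0.19), CRY1 was called without replicate 3 (0.22), and BHLHE40 turned to -0.13 without replicate 1. The log2 ratio of ARNTL to NR1D1 CPM was -4.03, -3.94 and -4.24 in siControl and -5.49, -5.16 and -5.68 in siOGT, lower in every siOGT library. NR1D1 alone was higher in every siOGT library.

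Calls among other genes around the clock were mixed in direction in some lists and only higher in others. Over all genes tested, 12.7% were called higher and 12.7% lower, and these lists, too, were chosen with results known. Of 6 C/EBP factors, bZIP proteins outside the PAR group, 3 were called higher and 0 lower, namely DDIT3 (log2 fold change 0.73), CEBPB (0.48) and CEBPG (0.37). Among 11 bHLH-PAS genes, relatives of CLOCK and ARNTL, 3 were called higher and 2 lower, with SIM2 (0.45), AHRR (0.44), the repressor of the aryl hydrocarbon receptor, and the hypoxia factor EPAS1 (-0.34) changing most. Of 15 kinases and ubiquitin ligases of clock proteins, PRKAA1, a catalytic subunit of AMPK, was the 1 called higher (0.19) and GSK3B the 1 called lower (-0.26). In each direction this is below the share over all genes. The PRKAA1 call was lost without replicate 1 (0.16) or replicate 2 (0.21), and the GSK3B call without replicate 1 (-0.28).

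The counts that follow stand beside the same 12.7% of all genes called in each direction. Of 15 cofactors of the activators and nuclear receptors, 4 were called higher and 2 lower. PPARGC1A (0.55), the deacetylase SIRT1 (0.49) and the acetyltransferase EP300 (0.27) had the largest changes. PPARGC1A was higher in only 2 of 3 pairs, and its call was lost under 6 of 9 alternatives, among them without replicate 1 (0.35) and without replicate 3 (0.49). The EP300 call was lost without replicate 1 (0.20). Of 8 reported clock outputs, 4 were called higher and 0 lower, led by KLF10 (0.82) and the cell cycle inhibitor CDKN1A (0.60). Of 8 inputs that set clock phase, 3 were called higher and 0 lower, namely SIK1 (0.41), CRTC2 (0.38) and HSF1 (0.19), the heat shock factor. The HSF1 call was lost without any 1 of the replicates (between 0.17 and 0.19).

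Likeness of pattern was measured by Pearson's r of log2 CPM over the 6 libraries, among 10780 genes whose mean reached 5 CPM. For TEF, the genes most alike were MLX (r = 0.997), MEF2B (0.995) and RELA (0.989). For DBP they were PCBP2 (0.998), UROS (0.993) and TMEM9B (0.993). For NFIL3 they were GET4 (0.996), SRSF10 (0.995) and MED10 (0.993). With 6 points that share libraries, depth and group, 90, 88 and 66 genes had an r above 0.95 to TEF, DBP and NFIL3, so the names describe only the nearest of many.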

How the data were processed

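Polyadenylated RNA of the 6 libraries was sequenced paired-end. Per the methods and submitters' processing notes, the authors aligned reads to hg38 with Bowtie2 (2.3.5.1) and counted them per gene with RSEM (1.3.1) in a strand-specific mode. The values the authors deposited per library are RSEM expected counts, not normalized, in which reads matching several genes are divided between them, so near-identical copies are uncertain. A GENCODE annotation for GRCh38 is given in the methods, but symbols in the files are partly of another form, so the exact gene models are uncertain. A deposited table of the authors' own comparison, made with DESeq2 (1.36.0), holds mean normalized counts, log2 fold changes and adjusted p-values and was not used.

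Expected counts were rounded, genes with a total under 10 were removed, and libraries were TMM-scaled. The two-sided edgeR quasi-likelihood test (4.0.16, R 4.3.3) was blocked on the replicate number, and p-values were adjusted over 14853 genes by Benjamini-Hochberg. CPM were scaled with library totals times TMM factors, within-pair log2 ratios took a prior count of 2, and SE and 95% intervals of fold changes derive from the F statistic. The scripts were tested on simulated data. Libraries are the 3 biological replicates of the labels, and those of the same number are paired in the study's methods. Deviations from group means over 12373 genes correlated by 0.69, 0.53 and 0.33 between same-numbered libraries (across genes, which are not independent). Tested alternatives were median-ratio size factors, library totals, other count filters, DESeq2 (1.42.0), no block, and each replicate left out.

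Members and gene lists were chosen with earlier results of these data known. Named were all 9 factors, OGT, all 10 clock repressors, from other lists the called genes with the 3 largest log2 fold changes in size, marker genes that were called or defining, and, for the 3 factors of largest change among those whose mean reached 5 CPM, the 3 genes most alike. ARNTL and ARNTL2 were matched to BMAL1 and BMAL2 in GENCODE 44 and RefSeq through synonyms. Some genes that this rule would name are not reported here. Protein sequences were not analysed here.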

Additional observations from a re-analysis of the deposited data

How the results depend on the processing

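The 8 factors tested kept their direction under every alternative, and 0 were called lower under any. Of the factors, 4 were called higher with median-ratio size factors, library totals alone, either other count filter or without replicate 2, but 1 with DESeq2 and 2 to 4 with a replicate left out. DESeq2 gave HLF no adjusted p-value. The replicate numbers pair the samples, and without the replicate block 0 factors were called and only 71 genes in all were called higher and 59 lower. With DESeq2, 1117 genes were called higher. With a replicate left out, 858 to 1652 genes were called higher and 945 to 1787 lower. BHLHE40, not called, turned to a log2 fold change of -0.13 without replicate 1 (up to 0.20 with another left out). The cause of these changes was not tested. In windows of the 250 bases before a start alone, the CRE of HLF (0 windows) and the ROR element of ARNTL were no longer found. Depth limits HLF, at 2 to 46 counts per library, and NPAS2, with 8 counts in all. Without any filter the log2 fold change of NPAS2 was 1.35 with an SE of 1.80, too uncertain to be read as a difference. The 3 libraries per group come from a single cell line and a single harvest time.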
